A study of Xenopus tropicalis with 21 samples.

Results

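The genes described here encode the collagens, the laminins, other glycoproteins of the extracellular matrix, and the enzymes and inhibitors that cross-link or cut it, in liver of the tropical clawed frog, Xenopus tropicalis. They were chosen by a rule on gene names, set with earlier results of these data known. The rule took rows that hold a single gene name. By name these are collagen chains, laminin chains, emilins, fibrillins, fibulins, nidogens, lysyl oxidases, MMP and ADAMTS proteases and TIMP inhibitors. Also taken were fn1, sparc, dcn, lum, bgn, postn, tnc and hspg2. This gave 119 genes of the 20288 rows in each table. The livers came from 5 F2 females of the BaP lineage, 5 F2 control females, 6 F1 females of the BaP lineage and 5 F1 control females, all mature. The F0 ancestors of the BaP lineage lived in benzo[a]pyrene (BaP), a polycyclic aromatic hydrocarbon, at 50 ng/L from the tadpole to the adult stage. The F1 and F2 frogs were not exposed themselves, so BaP below names a lineage. The labels do not say which frogs share parents. Each library was made from 15 mg of whole liver, so fewer cells of a type and less RNA per cell cannot be told apart.

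The extracellular matrix of the liver is sparse next to that of most organs. Fibrillar collagens hold portal tracts and vessels together, a basement membrane of collagen IV, laminin, nidogen and perlecan underlies bile ducts and vessels, and hepatocytes secrete the soluble fibronectin of blood plasma. In mammals stellate cells and portal fibroblasts make most liver collagen, and collagen I and III build up when the liver scars. Metalloproteinases cut these proteins, and TIMP proteins block the metalloproteinases.

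The values are group levels in FPKM, which counts fragments relative to transcript length and library size, so that levels can be set side by side between genes. Log2 fold changes are BaP over control, and q is the authors' p adjusted over all rows they tested. The authors' deposited tables hold 1 value per group and none per frog, so the spread between frogs cannot be shown, and how deeply each frog was sequenced is unknown. In its place, a 95% interval is given for a log2 fold change, derived from that fold change and the authors' p. The F2 and F1 tables were made separately, so levels are compared by test only within a generation. A gene was called where it was tested and q was under 0.05.

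Most of the matrix genes were scarce in these livers. In at least 1 group 54 of the 119 reached 1 FPKM and 17 reached 10 FPKM, while 28 stayed under 0.1 FPKM in all 4 groups. The collagenase genes mmp8, mmp13 and mmp13l were listed at 0 in all 4 groups. A further collagenase gene, mmp1, had 1.99 FPKM in F2 BaP and 2.07 FPKM in F2 control livers. Its F1 levels were 2.49 FPKM in BaP and 1.70 FPKM in control livers. The authors' tables mark 65 of the 119 as not tested in F2 and 58 in F1, and 56 were tested in neither. The highest level among those 56 was 0.550 FPKM, for col4a1 in F1 BaP livers.

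Fibronectin, fn1 (chromosome 9, 58703761 to 58749469), was the most abundant member. Positions here and below are the files' own spans, counted from 1, which for nearly all members match RefSeq's on assembly UCB_Xtro_10.0. It had 323 FPKM in F2 BaP and 269.6 FPKM in F2 control livers, and 369 FPKM in F1 BaP and 304.9 FPKM in F1 control livers, in the authors' deposited tables. That was 46.4% and 42.3% of the summed FPKM of all members in F2 BaP and F2 control livers, and 37.8% and 35.0% in F1 BaP and F1 control livers. Next by mean level were the matrilysin gene mmp7, the gelatinase gene mmp9.1, adamts1, timp2, adamts13, lamb3, bgn, sparc and col3a1. Matrilysin, mmp7 (chromosome 2, 162111069 to 162117679), is a small protease that epithelia secrete. It had 88.9 FPKM in F2 BaP and 70.8 FPKM in F2 control livers, and 167 FPKM in F1 BaP and 169.9 FPKM in F1 control livers. By mean level over the 4 groups the most abundant collagens were col3a1, col1a1 and col1a2, although col28a1 stood above col1a1 and col1a2 in F2 control livers. The first 3 together made 42.1% of the summed FPKM of the 40 collagen genes in F2 BaP livers and 39.5% in F2 control livers. In F1 the share was 49.5% in BaP and 39.0% in control livers.

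**Figure D1:**
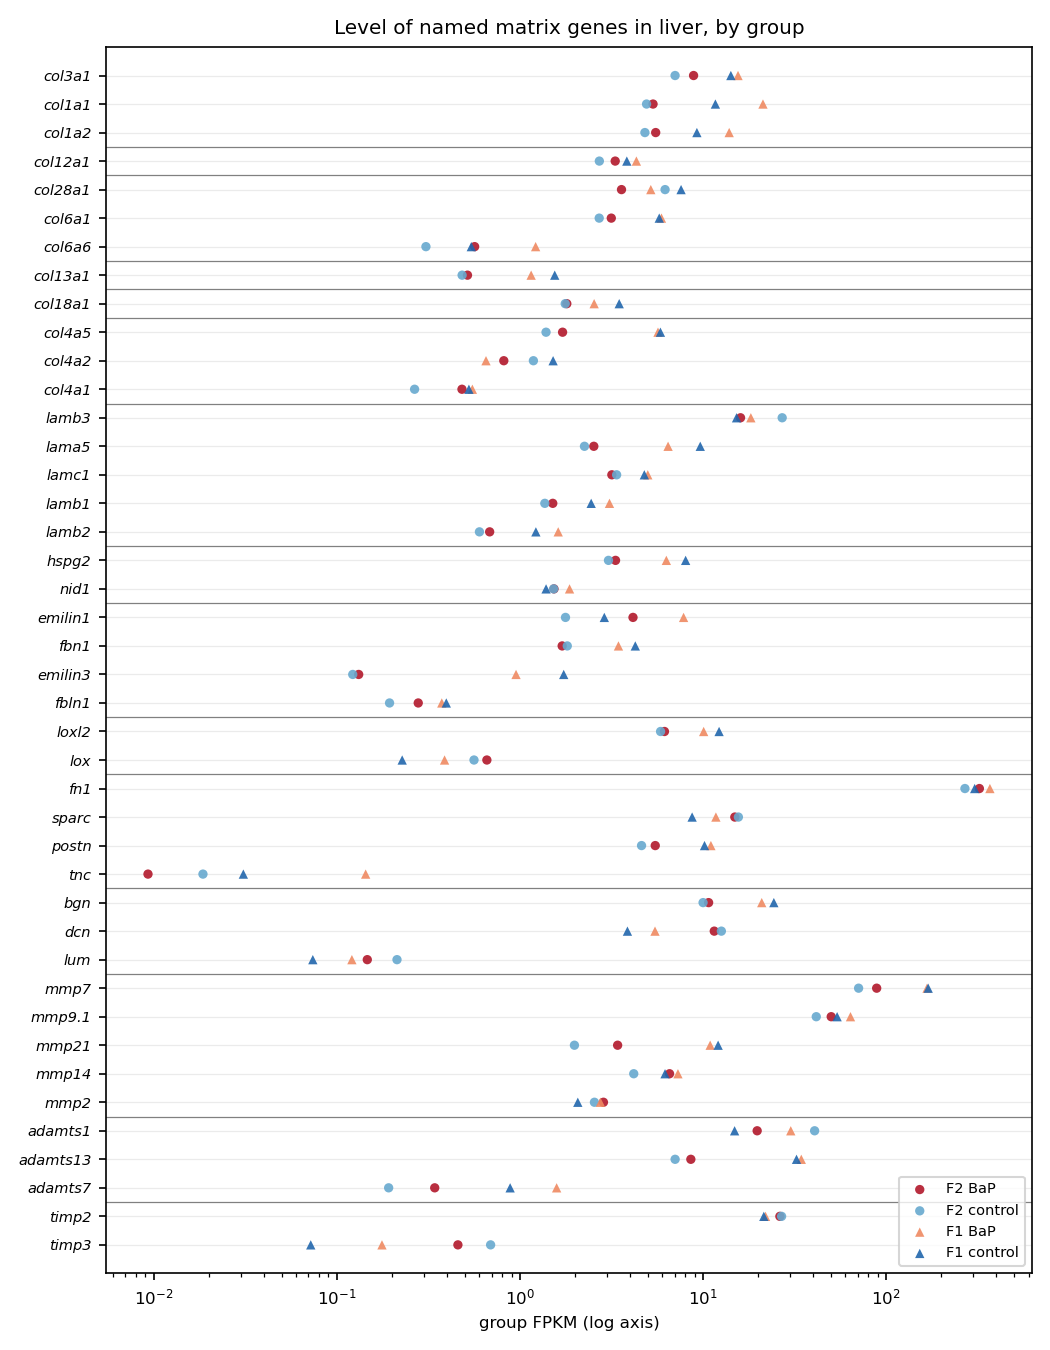
Group FPKM (log axis) of the 42 matrix genes named by rule, with 1 point per group (circles F2, triangles F1) and lines between classes. fn1 lies at 269.6 FPKM or more in every group, mmp7 and mmp9.1 lie between 41.6 and 169.9 FPKM, and the collagen and laminin chains lie between 0.266 and 27.1 FPKM.

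Levels of most members stood lower in the F2 table than in the F1 table. Of the 52 members tested in both, 7 had the higher FPKM in F2 among BaP groups and 10 among control groups, and the median log2 ratio of F2 over F1 was -0.74 and -0.83. Over all rows tested in both the medians were -0.35 and -0.33, and 33.4% and 38.6% of rows were higher in F2. These ratios cross separately made tables and carry no test. The genes that went the other way in both lineages included decorin, dcn, at 11.5 FPKM in F2 BaP and 12.6 FPKM in F2 control livers, against 5.47 FPKM in F1 BaP and 3.87 FPKM in F1 control livers. Decorin is a small proteoglycan that coats collagen fibrils.

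Comparing the BaP lineage with control livers asks which genes differ in unexposed descendants of exposed frogs. Among the matrix genes, 1 was called in F2 and 1 in F1, and both calls were emilin1, higher in the BaP lineage. The authors' deposited table called 1 of 54 tested members in F2 (1.85%), where 1.32% of all tested rows were called, and 1 of 61 in F1 (1.64%), where the share of all rows was 1.67%. Both shares are close to those of all rows. By direction, 1 member was higher and 0 were lower in each generation, where 0.793% of all rows were higher and 0.531% lower in F2, and 0.612% higher and 1.05% lower in F1. At an unadjusted p under 0.05 there were 7 members in F2 (13% against 8.9% of all rows). Of these 4 were higher (7.41% against 4.41% of all rows) and 3 lower (5.56% against 4.49%). In F1 there were 6 (9.84% against 8.91% of all rows). Of these 5 were higher (8.2% against 4.35% of all rows) and 1 was lower (1.64% against 4.55%). The median log2 fold change of tested members was 0.15 in F2, where all tested rows had -0.03, and 0.12 in F1, where all had 0.02. Values above 0 made up 39 of 54 members in F2 (72.2%, against 45.8% of all rows) and 38 of 61 in F1 (62.3%, against 53.2%). These counts cover only members with enough fragments for the authors' test, and no test compares them with other genes. In F2 the members' log2 fold changes ran between -1.04 and 1.22, and in F1 between -1.22 and 1.44.

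**Figure D2:**
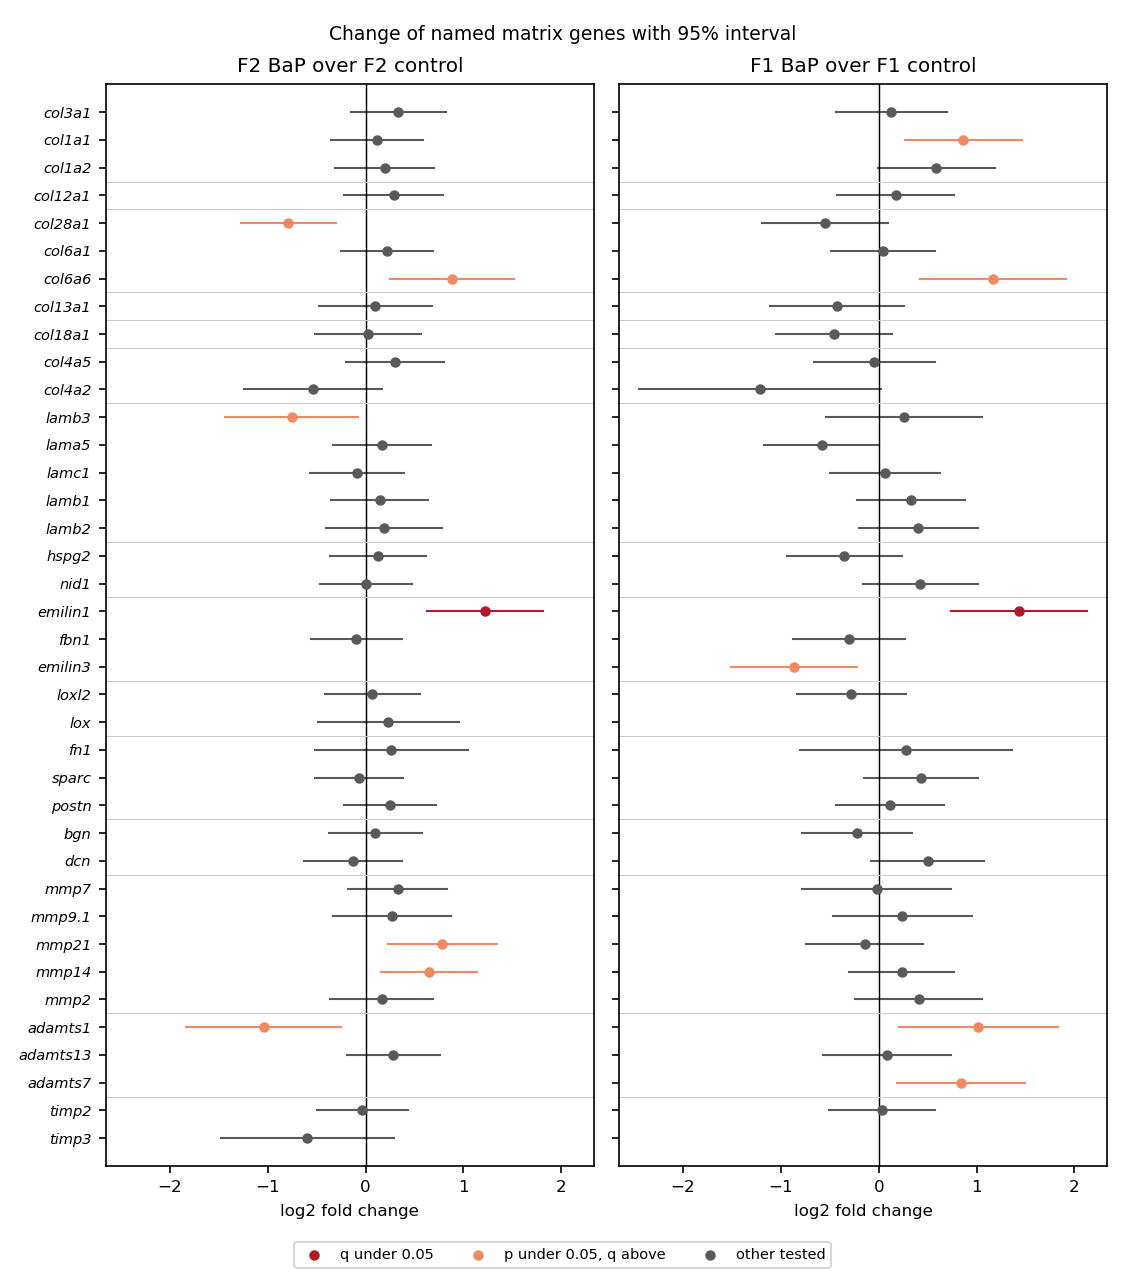
Log2 fold change of BaP over control in F2 (left) and F1 (right) for the 38 named matrix genes tested in F2 or F1, with 95% intervals derived from the authors' p; red marks q under 0.05 and orange an unadjusted p under 0.05. The intervals of emilin1 lie above 0 in both panels, and those of adamts1 lie below 0 in F2 and above 0 in F1.

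Emilin1 (chromosome 5, 161482452 to 161501599) is a glycoprotein at the border of elastin and microfibrils, and in mice it restrains the processing of TGF-beta precursors. The authors' deposited table listed 4.15 FPKM in F2 BaP livers and 1.77 FPKM in F2 control livers. The F1 values were 7.84 FPKM in BaP livers and 2.89 FPKM in control livers. The BaP level was the higher one in both generations. The log2 fold change was 1.22 in F2 (95% interval 0.63 to 1.82, q = 0.00755) and 1.44 in F1 (0.74 to 2.13, q = 0.00654), in the authors' deposited tables. Each p was 5e-05, the smallest in its table, and by that limit alone these intervals may be too wide. Standard errors from the authors' test statistic were not used for them. For the F2 minus F1 difference, those left 1 of all rows passing in place of 112, so the intervals may also be too narrow. For emilin1 the F2 log2 fold change less the F1 one was -0.21 (95% interval -1.13 to 0.70, adjusted p = 0.988, normal test computed from the authors' fold changes and p-values). The interval reaches to both sides of 0.

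The other emilin genes and the fibrillin and fibulin genes did not share those calls. The emilin2 gene had log2 fold changes of -0.01 in F2 and -0.07 in F1, with 1.51 FPKM in F2 BaP and 1.53 FPKM in F2 control livers, in the authors' deposited tables. For emilin3 the authors' deposited F1 table gave 0.953 FPKM in BaP and 1.73 FPKM in control livers (log2 fold change -0.86, p = 0.00875, q = 0.221). It was not tested in F2, where the levels were 0.132 FPKM in BaP and 0.122 FPKM in control livers. Fibrillin 1, fbn1, the main protein of microfibrils, had 1.70 FPKM in F2 BaP and 1.81 FPKM in F2 control livers, and 3.45 FPKM in F1 BaP and 4.27 FPKM in F1 control livers. Its log2 fold changes of -0.09 and -0.31 had intervals across 0. Fibrillin 2, fbn2, had values above 0, with log2 fold changes of 0.39 in F2 (the authors' p = 0.1555) and 0.24 in F1 (the authors' p = 0.4328). The fibulin genes fbln1, fbln2, fbln5 and fbln7 and the fibrillin gene fbn3 were not tested in either generation. Of the 10 genes in this class, 4 were tested in F2 and 5 in F1.

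Of 10304 other genes compared, matrix genes among them, the 5 nearest to emilin1 on the plane of the F2 and F1 log2 fold changes were outside the matrix set. They were LOC100488482 (distance 0.07), kif4a (0.13), tap1 (0.15), LOC100495542 (0.15) and slc39a8 (0.15). The peptide transporter gene tap1 had log2 fold changes of 1.09 in F2 and 1.38 in F1 in the authors' deposited tables. In F1 kif4a (q = 0.439) and slc39a8 (q = 0.0935) were not called in the authors' deposited table. The likeness rests on 2 values per gene.

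Fibrillar collagens form the ropes that carry tension. Their values were all above 0, 5 of 5 tested genes in F2 and 7 of 7 in F1, with median log2 fold changes of 0.21 and 0.25 in the authors' deposited tables, and none was called. Among all tested members 72.2% were above 0 in F2 and 62.3% in F1, and among all tested rows 45.8% and 53.2%. These genes were read in the same livers and are not replicates, and no test compares the class with other genes. Collagen I is built from col1a1 and col1a2 chains. The chain gene col1a1 (chromosome 10, 18236515 to 18262669) had 5.34 FPKM in F2 BaP and 4.92 FPKM in F2 control livers (log2 fold change 0.12, 95% interval -0.35 to 0.59). In F1 the authors' deposited table listed 21.3 FPKM in BaP and 11.7 FPKM in control livers for it, with a log2 fold change of 0.86 (0.26 to 1.46, p = 0.0047, q = 0.152). Its partner col1a2 had 5.52 FPKM in F2 BaP and 4.82 FPKM in F2 control livers, and 13.9 FPKM in F1 BaP and 9.26 FPKM in F1 control livers (F1 log2 fold change 0.59, the authors' p = 0.0547). The ratio of col1a1 to col1a2 FPKM was 0.967 in F2 BaP and 1.02 in F2 control livers, and 1.53 in F1 BaP and 1.26 in F1 control livers. For col1a1 the F2 change minus the F1 change was -0.75 (95% interval -1.51 to 0.01, adjusted p = 0.572, from the authors' fold changes and p-values).

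Collagen III, col3a1, which forms the fine reticular fibres of liver, had 8.88 FPKM in F2 BaP and 7.04 FPKM in F2 control livers, and 15.5 FPKM in F1 BaP and 14.2 FPKM in F1 control livers. Its log2 fold changes were 0.34 in F2 (95% interval -0.15 to 0.82) and 0.13 in F1 (-0.44 to 0.70). The collagen V chains col5a1 and col5a2, which set fibril width, had F2 log2 fold changes of 0.46 (the authors' p = 0.0666) and 0.21. The cartilage and minor fibrillar chains col2a1, col11a2 and col5a3 stayed at or under 0.138 FPKM in all groups.

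Collagens outside the fibrils showed both signs. The gene col6a6 (chromosome 6, 51796339 to 51874684) encodes one of the long chains of collagen VI, which makes beaded filaments around cells. It had 0.566 FPKM in F2 BaP and 0.307 FPKM in F2 control livers (log2 fold change 0.88, the authors' p = 0.00625, q = 0.198). In F1 it had 1.22 FPKM in BaP and 0.543 FPKM in control livers (log2 fold change 1.17, p = 0.0021, q = 0.0894), in the authors' deposited tables. These were the highest values after emilin1 among the tested members of each generation, and neither passed the q threshold. The core chains of collagen VI differed less, with F2 log2 fold changes of 0.22 for col6a1, 0.26 for col6a2 and 0.38 for col6a3. Their F1 values were 0.04, 0.04 and 0.26. The ratio of col6a1 to col6a2 FPKM was 0.856 in F2 BaP and 0.878 in F2 control livers, and 0.885 in both F1 groups.

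The gene col28a1 (chromosome 6, 34285537 to 34348354) encodes a collagen with von Willebrand factor A domains like those of collagen VI, and its values lay on the other side of 0. It had 3.59 FPKM in F2 BaP and 6.21 FPKM in F2 control livers (log2 fold change -0.79, 95% interval -1.28 to -0.30, the authors' p = 0.00145, q = 0.0821). In F1 it had 5.19 FPKM in BaP and 7.59 FPKM in control livers (log2 fold change -0.55, p = 0.0939), in the authors' deposited tables. The BaP level was the lower one in both generations. Of the fibril-associated collagens col12a1 had the highest mean over the 4 groups, with 3.32 FPKM in F2 BaP and 2.72 FPKM in F2 control livers, and 4.33 FPKM in F1 BaP and 3.84 FPKM in F1 control livers. The cartilage-type chain col9a3 stood above it in F1, at 4.94 FPKM in BaP and 6.36 FPKM in control livers, and had log2 fold changes of 0.57 in F2 and -0.36 in F1, neither with p under 0.05. The membrane collagen col13a1 and the endostatin precursor col18a1 had F2 values of 0.10 and 0.03 and F1 values of -0.43 and -0.45, none with p under 0.05. Anchoring fibril collagen col7a1 and the short-chain collagens col8a1, col8a2 and col10a1 stayed at or under 0.0415 FPKM.

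The basement membrane sheet is built from collagen IV and laminin. Collagen IV chains had 2 of 3 tested values above 0 in F2 and 0 of 3 in F1, with none called. The lowest F1 value of the class was that of col4a2, with 0.653 FPKM in BaP and 1.52 FPKM in control livers (log2 fold change -1.22, 95% interval -2.45 to 0.02, p = 0.0535), in the authors' deposited table. In F2 col4a2 had 0.817 FPKM in BaP and 1.18 FPKM in control livers (log2 fold change -0.54, the authors' p = 0.133). Its usual partner chain col4a1 was not tested and had 0.483 FPKM in F2 BaP and 0.266 FPKM in F2 control livers, and 0.550 FPKM in F1 BaP and 0.527 FPKM in F1 control livers. The files give both genes the same span (chromosome 2, 117190555 to 117410626), so fragments there may have been split between them, and their values are uncertain. The chain gene col4a5, the most abundant of the class, had 1.71 FPKM in F2 BaP and 1.39 FPKM in F2 control livers, and 5.68 FPKM in F1 BaP and 5.86 FPKM in F1 control livers.

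Laminin is a cross-shaped trimer of an alpha, a beta and a gamma chain. Of the 11 chain genes 6 were tested in F2 and 7 in F1, with 4 and 6 values above 0 and none called. The beta chain lamb3 (chromosome 2, 50735036 to 50792656), known from the laminin under mammalian skin, was the most abundant. It had 16 FPKM in F2 BaP and 27.1 FPKM in F2 control livers (log2 fold change -0.76, 95% interval -1.43 to -0.08, the authors' p = 0.0284, q = 0.438). In F1 it had 18.3 FPKM in BaP and 15.3 FPKM in control livers (log2 fold change 0.26, p = 0.521), in the authors' deposited tables. The alpha chain lama3 was scarcer, at 0.336 FPKM in F2 BaP and 0.261 FPKM in F2 control livers, and 0.794 FPKM in F1 BaP and 0.729 FPKM in F1 control livers.

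Other laminin chains belong to vessel and general basement membranes. The gamma chain lamc1 had 3.18 FPKM in F2 BaP and 3.38 FPKM in F2 control livers, and 4.99 FPKM in F1 BaP and 4.78 FPKM in F1 control livers. The beta chain lamb1 had log2 fold changes of 0.14 in F2 and 0.33 in F1, and lamb2 had 0.19 and 0.41. The alpha chain lama5 had 2.53 FPKM in F2 BaP and 2.25 FPKM in F2 control livers (log2 fold change 0.17). In F1 it had 6.45 FPKM in BaP and 9.66 FPKM in control livers (log2 fold change -0.58, the authors' p = 0.0511). Perlecan, hspg2, and nidogen 1, nid1, which tie laminin to collagen IV, had F2 values of 0.13 and 0.01 and F1 values of -0.35 and 0.43, none with p under 0.05.

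**Figure D3:**
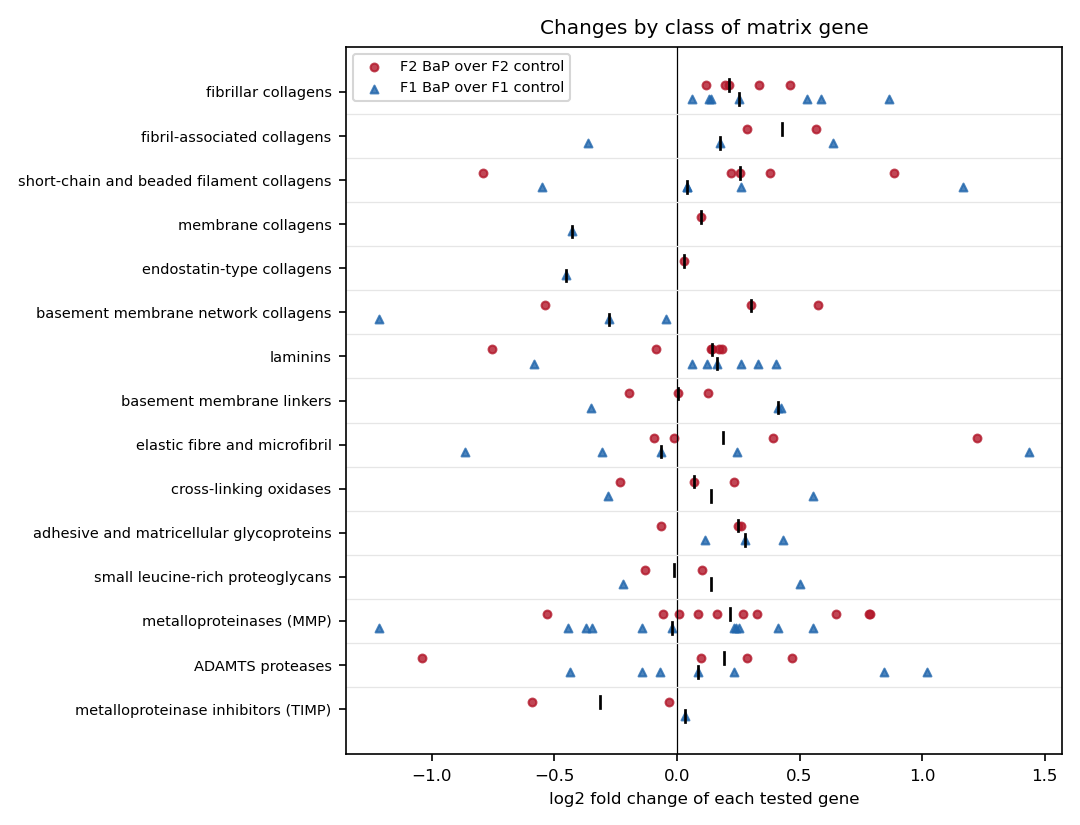
Log2 fold change (BaP over control) of each tested matrix gene by class, with F2 as circles above F1 as triangles in each row and a black bar at the median. All fibrillar collagen points lie above 0, while the proteases and microfibril genes spread to both sides; the outlying microfibril points on the right are emilin1.

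Fibronectin binds cells, collagen and fibrin. Its log2 fold change was 0.26 in F2 (95% interval -0.52 to 1.04) and 0.28 in F1 (-0.81 to 1.36) in the authors' deposited tables, so the intervals hold a 2-fold rise. Their lower ends stop short of a 2-fold fall. These approximate intervals may be too narrow, so such a fall is not excluded. The collagen-binding protein gene sparc had 14.9 FPKM in F2 BaP and 15.6 FPKM in F2 control livers, and 11.8 FPKM in F1 BaP and 8.72 FPKM in F1 control livers (F1 log2 fold change 0.43, the authors' p = 0.146). Periostin, postn, which marks fibroblasts in repair, had F2 and F1 values of 0.25 and 0.12. Tenascin C, tnc, an injury-associated glycoprotein, was not tested and stayed at or under 0.144 FPKM. Of the small proteoglycans, bgn had log2 fold changes of 0.10 and -0.22 in F2 and F1, dcn had -0.13 and 0.50, and lum stayed at or under 0.213 FPKM, untested. Lysyl oxidases cross-link collagen and elastin. By mean level over the 4 groups the highest was loxl2, which had 6.16 FPKM in F2 BaP and 5.87 FPKM in F2 control livers, and 10.1 FPKM in F1 BaP and 12.2 FPKM in F1 control livers, with intervals across 0. In F2 loxl1 stood above it, at 6.77 FPKM in BaP and 7.94 FPKM in control livers. The founding member lox had 0.660 FPKM in F2 BaP and 0.561 FPKM in F2 control livers and was not tested in F1.

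Of 21 MMP genes 10 were tested in F2 and 11 in F1, and none was called. Values above 0 numbered 8 of 10 in F2 and 5 of 11 in F1. The membrane-bound activator of gelatinase A, mmp14 (chromosome 1, 140077658 to 140100217), had 6.57 FPKM in F2 BaP and 4.19 FPKM in F2 control livers (log2 fold change 0.65, 95% interval 0.16 to 1.14, the authors' p = 0.00895, q = 0.238). Its F1 levels were 7.30 FPKM in BaP and 6.20 FPKM in control livers (log2 fold change 0.23, p = 0.394), in the authors' deposited tables. The secreted protease gene mmp21 (chromosome 7, 25138912 to 25152345), which in vertebrates takes part in left-right patterning of the embryo, had 3.42 FPKM in F2 BaP and 1.99 FPKM in F2 control livers (log2 fold change 0.78, the authors' p = 0.0058, q = 0.193). In F1 its levels were 10.9 FPKM in BaP and 12.1 FPKM in control livers (log2 fold change -0.14, the authors' p = 0.634). The difference of these changes, 0.93 for F2 minus F1 (95% interval 0.11 to 1.74), did not pass after adjustment (adjusted p = 0.426, from the authors' fold changes and p-values).

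The abundant proteases mmp7 and mmp9.1 had F2 log2 fold changes of 0.33 and 0.27 and F1 values of -0.02 and 0.24 in the authors' deposited tables, none with p under 0.05. Gelatinase A, mmp2, had 2.86 FPKM in F2 BaP and 2.55 FPKM in F2 control livers, and 2.75 FPKM in F1 BaP and 2.07 FPKM in F1 control livers. The inhibitor gene timp2 (chromosome 10, 22349809 to 22383778) lay at similar levels in both groups of each generation. It had 26.3 FPKM in F2 BaP and 26.9 FPKM in F2 control livers, and 22 FPKM in F1 BaP and 21.5 FPKM in F1 control livers. Its log2 fold changes were -0.03 (95% interval -0.50 to 0.44) and 0.03 (-0.51 to 0.57). The matrix-bound inhibitor timp3 had 0.459 FPKM in F2 BaP and 0.692 FPKM in F2 control livers (log2 fold change -0.59, the authors' p = 0.186) and was not tested in F1.

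The ADAMTS family are secreted proteases with thrombospondin repeats, and adamts1 cuts proteoglycans such as versican in mammals. The adamts1 gene (chromosome 2, 18147968 to 18156691) had 19.8 FPKM in F2 BaP livers and 40.7 FPKM in F2 control livers. In F1 it had 30.2 FPKM in BaP livers and 14.9 FPKM in control livers, in the authors' deposited tables. The BaP level was the lower one in F2 and the higher one in F1. The log2 fold change was -1.04 in F2 (95% interval -1.84 to -0.25, the authors' p = 0.0102, q = 0.259) and 1.02 in F1 (0.20 to 1.83, p = 0.0142, q = 0.295), so neither passed alone. The change in F2 minus the change in F1 was -2.06 (95% interval -3.20 to -0.92, adjusted p = 0.0418 over all rows tested in both, normal test computed from the authors' fold changes and p-values). It was the 1 of 52 members tested in both (1.92%) to pass, where 0.959% of all rows passed. The call sits near the threshold: with fold changes centred within each generation the adjusted p was 0.0521, and with the spread of the difference taken from the authors' test statistic it was 1, the highest a p can be, and 1 of all rows passed in place of 112. Scaled to the observed spread of all differences, an alternative added after the values were seen, it was 0.0701.

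The other abundant ADAMTS gene, adamts13, encodes the protease that cuts von Willebrand factor and is made by stellate cells in mammals. It had 8.58 FPKM in F2 BaP and 7.04 FPKM in F2 control livers, and 34.4 FPKM in F1 BaP and 32.4 FPKM in F1 control livers, with intervals across 0. The adamts7 gene had 1.59 FPKM in F1 BaP and 0.884 FPKM in F1 control livers (log2 fold change 0.84, p = 0.0117, q = 0.263), in the authors' deposited table. Its F2 levels were 0.343 FPKM in BaP and 0.192 FPKM in control livers, untested. Of the 19 ADAMTS genes, 4 were tested in F2 and 7 in F1.

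Across the generations, 28 of the 52 members tested in both had log2 fold changes of the same sign (53.8%), against 44.5% of all rows tested in both. Of these 23 were above 0 in both and 5 below 0 in both. A further 15 were above 0 in F2 and below 0 in F1, and 9 the other way round. An unadjusted p under 0.05 for the difference was reached by 3 members (5.77%, against 9.03% of all rows), which were adamts1, mmp21 and the stromelysin gene mmp3. The last had 0.845 FPKM in F2 BaP and 0.490 FPKM in F2 control livers, and 2.38 FPKM in F1 BaP and 5.54 FPKM in F1 control livers (difference 2.0, adjusted p = 0.541 from the authors' fold changes and p-values).

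**Figure D4:**
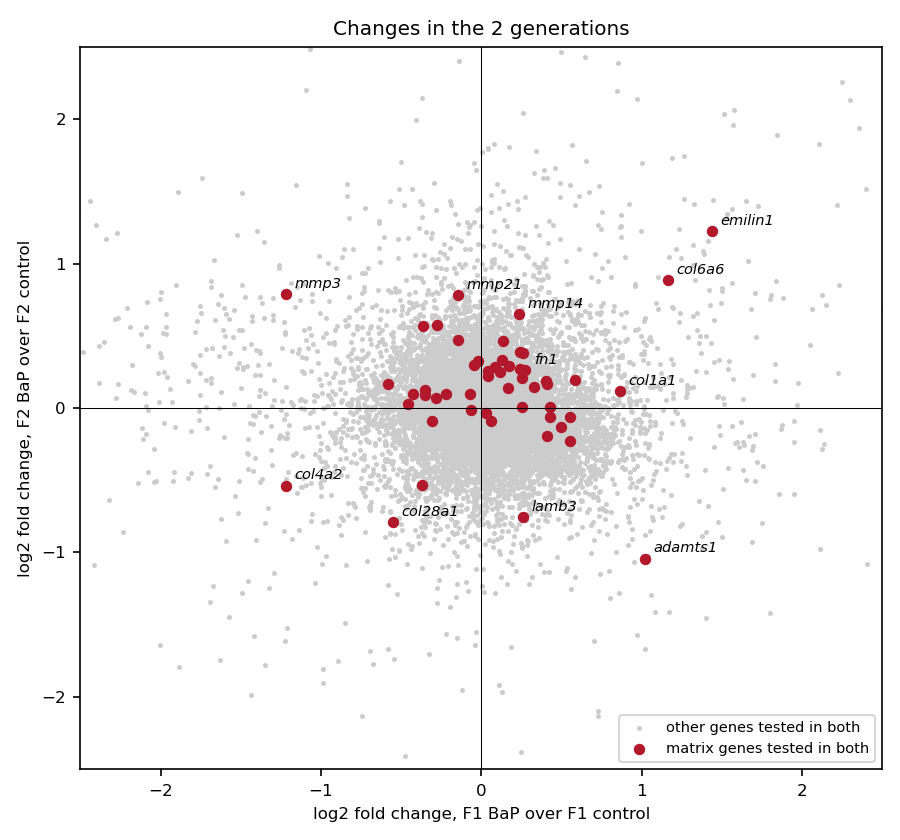
Log2 fold change of BaP over control in F2 (vertical axis) against F1 (horizontal axis) for genes tested in both tables; red points are the 52 matrix genes and grey points the other genes, of which 66 lie outside the axes. Most red points lie near the origin, emilin1 lies far out at upper right and adamts1 at lower right.

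The members lie on 10 chromosomes, with between 8 and 21 on each. Of neighbouring members, 22 pairs lie within 1 Mb of each other, and 11 of these have no protein-coding gene between them. The chain genes col4a6 and col4a5 are 0.899 kb apart, col5a2 and col3a1 11.1 kb, lum and dcn 5.81 kb, and mmp7 and mmp3 1.96 kb. In F2 the pair col5a2 and col3a1 had log2 fold changes of 0.21 and 0.34, and in F1 0.25 and 0.13. The pair mmp7 and mmp3 had 0.33 and 0.79 in F2 and -0.02 and -1.22 in F1. The called gene emilin1 has no other member within that distance.

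Other genes of the pathway, from 4 lists, were mostly not called either. Over all tested rows 1.32% were called in F2 and 1.67% in F1, and 8.9% and 8.91% had an unadjusted p under 0.05 in the authors' test. No test compares the lists with other genes. Of collagen processing enzymes 0 of 17 tested were called in F2 and 1 of 16 in F1, lower, with 0 and 1 at an unadjusted p under 0.05 in the authors' tables. That was serpinh1, the collagen chaperone HSP47, at 7.49 FPKM in F1 BaP and 20.4 FPKM in F1 control livers (log2 fold change -1.45, q = 0.00654, authors' deposited table). Its F2 value was -0.10. Among integrins and other matrix receptors the authors' Cuffdiff test called 0 of 22 in F2 and 0 of 21 in F1, with 4 and 1 at an unadjusted p under 0.05. Of TGF-beta pathway genes 1 of 18 was called in F2, lower, and 2 of 19 in F1, of which 1 was higher. At an unadjusted p under 0.05 there were 4 in F2, all lower, and 3 in F1, 2 higher and 1 lower, where 8.9% and 8.91% of all rows reached it. The activin subunit gene inhba had 2.0 FPKM in F2 BaP and 6.04 FPKM in F2 control livers (log2 fold change -1.59, q = 0.00755, authors' deposited table). Its F1 value was -0.15, not called. In F1 ltbp4, which tethers latent TGF-beta to microfibrils, had a log2 fold change of 1.05 (q = 0.0386) and tgfbi, a TGF-beta-induced adhesion protein, one of -2.08 (q = 0.0461), in the authors' deposited table. The F2 value of ltbp4 was 0.49 (the authors' p = 0.0586) and that of tgfbi -0.02, neither called. Of other matrix glycoproteins and proteoglycans 0 of 20 were called in F2, with 0 at an unadjusted p under 0.05, and 1 of 22 in F1, with 2 at that p. That was the microfibril gene mfap2, at 2.16 FPKM in F1 BaP and 9.0 FPKM in F1 control livers (log2 fold change -2.06, q = 0.00654, authors' deposited table). In F2 mfap2 was not tested, with 0.376 FPKM in BaP and 0.422 FPKM in control livers.

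Markers of the cells that could supply these transcripts were read in the same tables. Hepatocyte markers were abundant in all groups, with log2 fold changes below 0 in 10 of 10 tested in F2 and above 0 in 8 of 11 in F1. The authors' Cuffdiff test called 0 of them in both generations, with 0 at an unadjusted p below 0.05. Genes the tables mark as having too much data were left out, alb in both generations and tf in F2 alone. The 10 hepatocyte markers left in F2 summed to 9652 FPKM in BaP and 12452 FPKM in control livers. The 11 left in F1 summed to 12771 FPKM in BaP and 10286 FPKM in control livers. Stellate cell and fibroblast markers summed to 252 FPKM in F2 BaP and 273 FPKM in F2 control livers, and 302 FPKM in F1 BaP and 264 FPKM in F1 control livers. Most of each sum came from vim, myl9 and acta2, which in F2 BaP livers had 113, 60.5 and 53.5 FPKM. The markers pdgfrb, lrat, rgs5, thy1, mgp and ngfr were untested in both generations and stayed at or under 0.405 FPKM. Of the stellate cell and fibroblast markers 4 of 10 tested had values above 0 in F2 and 5 of 8 in F1. The marker tagln was called lower in F2 (log2 fold change -0.86, q = 0.0491, authors' deposited table). Its F1 value was 0.08, not called. Endothelial markers summed to 66.3 FPKM in F2 BaP and 58.3 FPKM in F2 control livers, and 147 FPKM in F1 BaP and 148 FPKM in F1 control livers. The higher F2 sum in BaP livers came from stab1, at 23.7 FPKM in F2 BaP and 14.9 FPKM in F2 control livers. That gap is larger than the gap between the sums, so the other endothelial markers together were slightly lower in F2 BaP livers. By sign, 2 of 11 tested endothelial markers were above 0 and 9 below 0 in F2, and 8 of 12 were above 0 in F1. The authors' Cuffdiff test called 0 of them in both generations, with 2 in F2 and 0 in F1 at an unadjusted p below 0.05. Neither list was at 0 for any marker in all groups.

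Markers of further cells and tissues were read as well, and some of them differed. Over all tested rows 1.32% were called in F2 and 1.67% in F1. Striated muscle markers had log2 fold changes below 0 in 5 of 5 tested in F2, with the actin gene acta1 called, and in 6 of 6 in F1, with acta1, tnnt1 and ckm called. They summed to 6.63 FPKM in F2 BaP and 14.4 FPKM in F2 control livers, and 6.34 FPKM in F1 BaP and 20.7 FPKM in F1 control livers. Pancreas markers were above 0 in 4 of 4 in F2 (0 called by the authors' Cuffdiff test, with 3 having an unadjusted p under 0.05) and 6 of 7 in F1 (ctrc, ctrb2 and cpb1 called). They summed to 80.3 FPKM in F2 BaP and 35.8 FPKM in F2 control livers, and 402 FPKM in F1 BaP and 362 FPKM in F1 control livers, with prss2 and pnlip at 0 in all groups. The amylase gene amy2a made most of these sums, and without it they were 17.1 FPKM in F2 BaP and 1.51 FPKM in F2 control livers, and 50.2 FPKM in F1 BaP and 0.887 FPKM in F1 control livers. Skin and pigment cell markers were below 0 in the 1 tested in F2, the melanosome gene pmel, which was called, and in 3 of 4 in F1. In F1 the authors' Cuffdiff test called 0 of these 4, and all 4 had an unadjusted p below 0.05. They summed to 1.52 FPKM in F2 BaP and 3.86 FPKM in F2 control livers, and 3.80 FPKM in F1 BaP and 7.23 FPKM in F1 control livers. Of the remaining lists, the authors' Cuffdiff test called 0 bile duct, 0 leukocyte and 0 mesothelium markers in either generation, with at most 1 of each at an unadjusted p below 0.05. Tested in F2 and F1 were 6 and 6 bile duct, 10 and 9 leukocyte, and 1 and 1 mesothelium markers. Of erythrocyte markers 5 of 5 were above 0 in F1, with the globin gene hbd called, and 2 of 5 in F2. The globin genes hba1 and hbg1 were marked as having too much data in both generations and were left out. The other 5 erythrocyte markers summed to 892 FPKM in F2 BaP and 984 FPKM in F2 control livers. In F1 they summed to 546 FPKM in BaP and 312 FPKM in control livers. These sums therefore do not give the whole globin level. The part of these cells and tissues in the values of emilin1, adamts1, col6a6 and the other matrix genes was not tested.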

How the data were processed

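Liver RNA of 21 mature females was sequenced as 75 bp reads from stranded poly(A) libraries, per the labels' protocols. Cuffdiff 0.0.7 and Cufflinks 0.0.7, HISAT2 and Trimmomatic 0.32.1 are named in the submitters' processing notes, without saying what each did; their parameters and the annotation are not stated there. Both tables, per the file headers, set BaP against control with Cuffdiff, over the same 20288 rows. The authors' FPKM is 1 value per group, and the deposited log2 fold change has no pseudocount. The authors' p-value and q-value and a test statistic, a score, stand beside it. Depth per library is unknown, and no interval for counting error is given.

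Groups came from the labels. The members and gene lists were chosen with earlier results of these data known. Calls used the authors' q over all rows tested. Genes named are members called or with p under 0.05 in a generation, members called in the difference test, the 10 with the highest mean FPKM, the most abundant of each of 15 classes, and landmark genes, 42 in all, and called genes of 4 pathway and 10 marker lists, at most 4 a list; all other members given with values, such as emilin2, mmp3 and col5a1, were chosen after their values were seen. Standard errors were the log2 fold change over the normal quantile of the authors' p, and 95% intervals followed from them. The F2 minus F1 difference got a normal p, adjusted by Benjamini-Hochberg over 11677 rows tested in both tables. The script was first tested on simulated data drawn with these same standard errors, so that trial could not check the standard errors. The 95% intervals are approximate. RefSeq's table for UCB_Xtro_10.0 held all 119 names; both ends were identical for 112, and positions count from 1. Python 3.11.15, scipy 1.17.1 and pandas 2.3.3 were used. Alternatives were other q thresholds, FPKM minimums, a fold minimum, recomputed q, pseudocounts, centring, and other standard errors of the difference.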

Additional observations from a re-analysis of the deposited data

Results flagged for a closer look

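The adamts1 gene was flagged because its changes in the 2 generations differ by a test of the difference itself. Its log2 fold change was -1.04 in F2 and 1.02 in F1 in the authors' deposited tables, and the F2 change minus the F1 change was -2.06 (adjusted p = 0.0418, normal test over all rows tested in both, from the authors' fold changes and p-values). Over the alternatives tried the adjusted p lay between 0.0397 and 1. The check for single outlying frogs could not be made, because the tables hold no values of single frogs.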

How the results depend on the processing

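The emilin1 call held in F2 and F1 under each alternative tried for calls. Its p was the smallest in each table, and its levels and fold changes lay above the minimums tried, so these alternatives could hardly remove it. Standard errors from the test statistic were not applied to the calls. At q under 0.1 there were 2 members called in F2 and 2 in F1, the added ones being col28a1 and col6a6. Over all rows, 81 were called in F2 and 95 in F1 at q under 0.01, and 315 in F1 at q under 0.1. The members' median log2 fold change lay between 0.09 and 0.22 in F2 and between 0.08 and 0.12 in F1. The count of 1 member whose change differed between generations went to 0 with standard errors from the test statistic (1 of all rows passed, against 112; the cause was not tested), to 0 with centred fold changes (adamts1 adjusted p = 0.0521, from the authors' p-values) and, with the difference scaled to its own spread, an alternative chosen after seeing the data, to 0 (adjusted p = 0.0701). At an adjusted p under 0.1 the count over all rows was 204. No paired analysis was possible because the tables hold 1 value per group; leaving out single frogs was not run for the same reason. The authors' tables left 56 members untested in both generations, so changes in them were not detectable here.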

Other observations

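A few genes outside the matrix set, from the TGF-beta pathway list, had values of opposite sign in the 2 generations like those of adamts1; they were chosen after their values were seen. The transcription repressor gene tgif1 had 6.07 FPKM in F2 BaP and 11.2 FPKM in F2 control livers, and 10.4 FPKM in F1 BaP and 5.13 FPKM in F1 control livers, in the authors' deposited tables. Its F2 change minus its F1 change was -1.90 (adjusted p = 0.00391, normal test over all rows tested in both, from the authors' p-values). Over the alternatives tried that adjusted p lay between 0.00366 and 1, the highest being with standard errors from the authors' test statistic. The thrombospondin gene thbs1, a matrix glycoprotein that activates TGF-beta, had 17.3 FPKM in F2 BaP and 29.5 FPKM in F2 control livers, and 20.3 FPKM in F1 BaP and 14.6 FPKM in F1 control livers. Its difference of -1.25 did not pass (adjusted p = 0.205, from the authors' p-values).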
